A study of Mus musculus with 30 samples.

Results

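The 8 genes described here encode proteins of the sarcomere that are known for responding to mechanical load: the muscle ankyrin repeat genes ANKRD1, ANKRD2 and ANKRD23, the muscle LIM protein gene CSRP3, the Xin repeat genes XIRP1 and XIRP2, and the calsarcin genes MYOZ1 and MYOZ2. They were found by their symbols and make up 8 of the 21073 genes of the RNA-Seq table. They were chosen by name with measured RPKM values of these mice known, and the differences of EAE-induced mice on day 14 were taken as part of that choice. Therefore, for the 8 genes the comparisons of those mice with the other groups are given as a description. Their calls and intervals are printed as part of it, and tests are read only for the other comparisons.

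Extensor digitorum longus (EDL) muscle, a fast hind limb muscle, was taken from 30 female wild-type SJL mice, 5 in each of 6 groups. Unimmunized mice (Ctrl) received nothing. OVA mice were immunized with ovalbumin in complete Freund's adjuvant (CFA), and EAE mice with a peptide of myelin proteolipid protein in the same adjuvant and without pertussis toxin, which induces experimental autoimmune encephalomyelitis, a relapsing and remitting model of multiple sclerosis with ascending paralysis. Muscles were dissected on day 14, at the peak of disease, or on day 40, in remission, from different mice. The immunized groups share the adjuvant, no group received the adjuvant alone, and ages and disease scores of these mice are not given in the sources used here.

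The Z-disc anchors the thin filaments and the giant protein titin at each end of a sarcomere, and it is also a site where stretch and load are sensed. The muscle ankyrin repeat proteins bind titin in the I-band and can move to the nucleus, where they act on transcription. CSRP3 is a Z-disc protein of slow fibres and heart, XIRP1 and XIRP2 bind and protect actin filaments, and the calsarcins tie the phosphatase calcineurin to alpha-actinin, MYOZ1 mainly in fast fibres and MYOZ2 mainly in slow fibres and heart. The 8 genes lie apart in the genome (GRCm38, RefSeq, Entrez identifiers as in the deposited table), except that ANKRD1 and ANKRD2 share a chromosome. ANKRD1 (107765) is at chr19:36111965-36119844 on the minus strand and ANKRD2 (56642) at chr19:42035917-42045111 on the plus strand. ANKRD23 (78321) is at chr1:36530193-36536556 and CSRP3 (13009) at chr7:48830398-48848051, both on the minus strand. XIRP1 (22437) is at chr9:120013755-120023598 on the minus strand and XIRP2 (241431), with 11979 exon bases the longest of the 8, at chr2:67446000-67526620 on the plus strand. MYOZ1 (59011) is at chr14:20649102-20656540 and MYOZ2 (59006) at chr3:123006206-123035003, both on the minus strand.

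Short stretches of promoter are shown for 3 of the genes whose 250 bases before the transcription start held an MCAT element, the site of TEAD factors, or a MEF2 site, because MEF2 and TEAD genes are among the related genes described below. RefSeq windows (GRCm38.p6) were matched for 6 of the 8 genes, MYOZ1 and XIRP1 having no entry. The MCAT element (CATTCC) was searched on both strands and was present in 12.6% of 32841 promoter windows of that length, and the MEF2 site in 0.509%. Capitals mark the match, read 5′ to 3′ on the strand of the gene, and no match overlapped an E-box.
ANKRD1, MCAT element at 210 bases before the start, chr19:36120037-36120066, minus strand: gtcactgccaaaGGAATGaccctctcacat
ANKRD1, MCAT element at 123 bases before the start, chr19:36119950-36119979, minus strand: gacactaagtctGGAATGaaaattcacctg
ANKRD23, MCAT element at 120 bases before its second start, chr1:36535842-36535871, minus strand: cccagtgggccaCATTCCcagaacggtatt
XIRP2, MEF2 site at 74 bases before the start, chr2:67445918-67445947, plus strand: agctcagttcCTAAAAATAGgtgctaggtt
In the same window ANKRD2 and CSRP3 held neither motif, and no window of the 6 genes held a CArG box, the site of SRF, which 1.47% of all windows held. Not every match found is printed here, and a match is only a description of the letters. The E-box (CANNTG), the site of myogenic factors, was in 66.2% of all windows and does not set these genes apart. In the GENCODE annotation an exon of ANKRD1 reaches further upstream and covers both of its MCAT stretches.

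The 8 genes differed widely in level. RPKM (reads per kilobase of exon, scaled to the reads of the library) corrects for transcript length, so that genes can be compared. In unimmunized mice on day 14, ANKRD23 (1645 ± 386 RPKM, SD, n = 5) and MYOZ1 (1284 ± 209) were the most abundant. XIRP2 (163 ± 24.1), ANKRD2 (125 ± 40.2), MYOZ2 (121 ± 18.0), CSRP3 (87.7 ± 46.4) and ANKRD1 (86.6 ± 16.1) followed, with overlapping ranges between neighbours, and XIRP1 was lowest at 23.6 ± 6.79. Each mouse had an estimated 17800000 to 31300000 reads assigned to genes (median 21550000), and the lowest value of any member rested on an estimated 593 reads, for CSRP3 in replicate 5 of the unimmunized mice on day 40, a counting error of 4.11%. The fast muscle marker MYLPF was at 7501 to 15611 RPKM in all 30 mice. The heart markers NPPA, nppb, MYL7, RYR2 and TNNI3 did not exceed 1.66 RPKM in any mouse, and MYH6, MYL4 and TNNT2 reached 55.8, 92.3 and 22.4 RPKM.

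**Figure D1:**
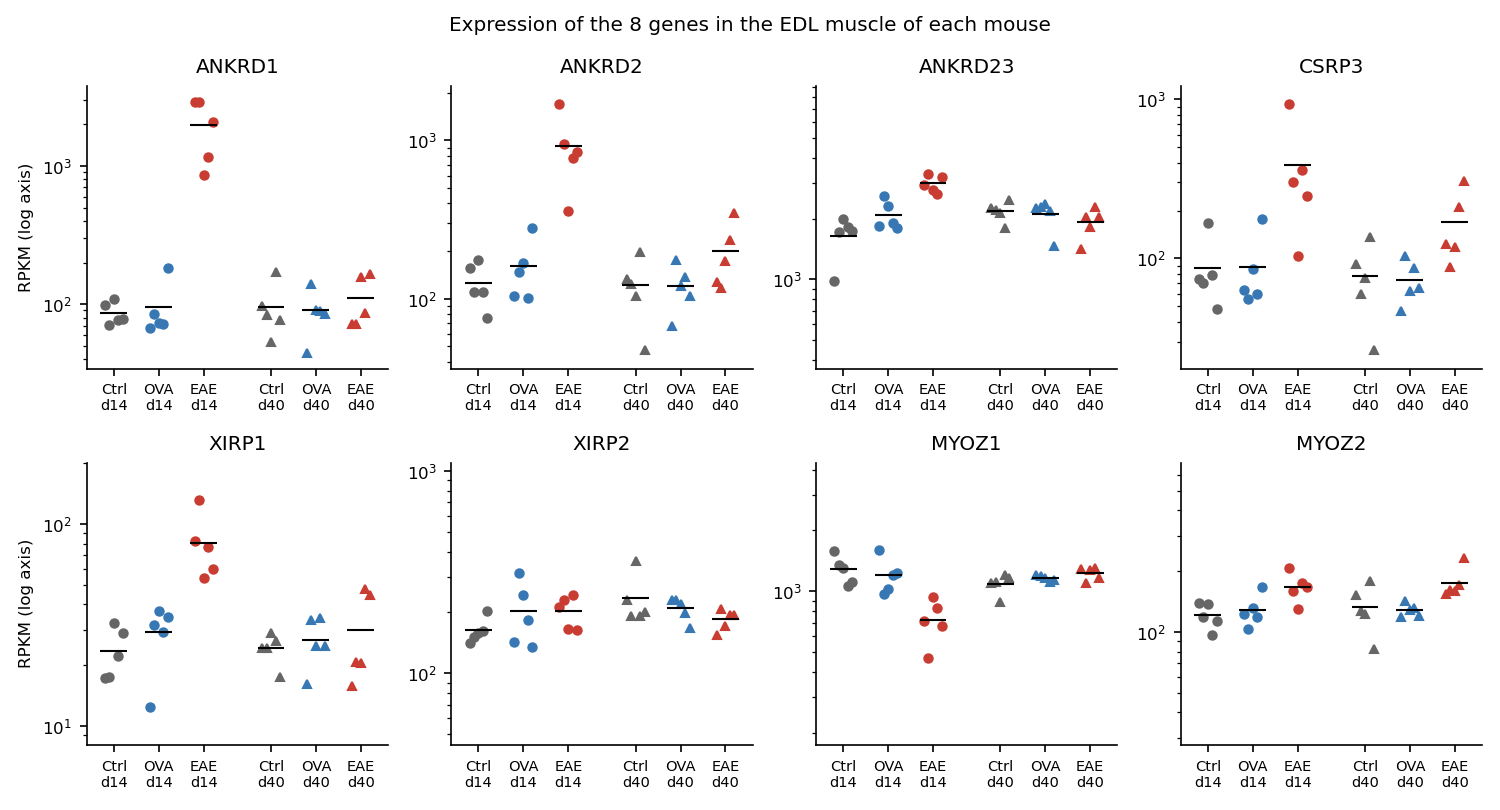
RPKM of each gene (log axis, a range of its own in each panel) in each mouse, with circles for day 14, triangles for day 40 and a line at the group mean (n = 5). ANKRD1, ANKRD2, ANKRD23 and XIRP1 lay above all other groups in the EAE mice on day 14, and MYOZ1 in 4 of those 5 mice lay below every mouse of the other groups.

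On day 14 the ankyrin repeat genes, CSRP3 and XIRP1 were higher in EAE mice, MYOZ1 was lower, and XIRP2 and MYOZ2 differed little. The change ran from 20.7-fold for ANKRD1 to 1.86-fold for ANKRD23 among the higher genes. In the limma model, with genes called where the fold change exceeded 1.5 and the adjusted p was below 0.05, 6 of the 8 genes were called against unimmunized mice, 5 higher and 1 lower, beside 26.4% of the 8771 genes tested (14.6% higher and 11.8% lower). Against OVA mice, 4 were called higher and 1 lower, beside 20.3% of 8674 genes (11.0% and 9.28%). The values of 5 genes (ANKRD1, ANKRD2, ANKRD23, XIRP1 and MYOZ1) did not overlap between EAE mice and either control group, beside 32.2% and 26.2% of all genes. All 8 passed the filter on low values, and nothing is read from these counts, because the same contrast chose the genes. Both comparisons use the same EAE mice. The median of all genes tested was itself shifted by 0.11 on the log2 scale in both, and by 0.08 and 0.03 against unimmunized mice after median-of-ratios scaling and quantile normalization. In whole muscle a change in the number of cells of a type cannot be told apart from a change in RNA per cell.

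ANKRD1 had the largest difference of the 8. In replicates 1 to 5 of the EAE mice on day 14 it was at 2911, 2912, 856.5, 1154 and 2094 RPKM. The unimmunized mice had 98.6, 70.2, 108, 77.4 and 78.3 RPKM, and the OVA mice had 67.0, 84.3, 73.1, 71.8 and 183 RPKM. The lowest EAE mouse was thus well above the highest mouse of the other groups. The log2 fold change was 4.38 (SE 0.33) against unimmunized mice and 4.32 (SE 0.33) against OVA mice, and by absolute size it ranked 10 among the genes tested in each.

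On day 40 ANKRD1 was back in the range of the controls. The EAE mice had 71.4, 71.4, 158, 86.6 and 165 RPKM, the unimmunized mice 97.0, 83.9, 52.8, 170 (169.7) and 77.1, and the OVA mice 44.5, 140.2, 91.4, 89.9 and 85.3. The 5 groups other than EAE on day 14 had means between 86.6 and 110.4 RPKM with overlapping values, and no neighbours in that order differed beyond their spread. The difference from unimmunized mice on day 40 was 0.21 (95% interval -0.48 to 0.90, limma adjusted p = 0.695).

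ANKRD2, which responds to stretch and is more abundant in slow muscle, followed the same order at a smaller size. The EAE mice on day 14 had 1699, 947, 359.8, 777 and 842 RPKM. The unimmunized mice had 155, 110.0, 177, 109.8 and 75.6, and the OVA mice 104, 147, 168, 102 and 278. No EAE mouse fell within the range of the others, although replicate 3 (359.8) came near the highest OVA mouse (278). The log2 fold changes were 2.78 (SE 0.36) against unimmunized and 2.47 (SE 0.36) against OVA mice. On day 40 the mean in EAE mice was 200.2 ± 95.6 RPKM, against 121 ± 54.6 in unimmunized and 121 ± 39.6 in OVA mice, with overlapping values.

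ANKRD23, the member with the highest level in unimmunized mice, had the smallest difference of the 3 ankyrin repeat genes. EAE mice on day 14 ranged from 2658 to 3341 RPKM, unimmunized mice from 982 to 1988 and OVA mice from 1789 to 2589, so that the EAE mice lay above both without overlap. The log2 fold change was 0.89 (SE 0.17) against unimmunized mice but 0.53 (SE 0.17) against OVA mice, which is under the fold threshold. Replicate 1 of the unimmunized mice, at 982 RPKM, was far below the other 4, and without it the first difference was 0.72. GENCODE places 2109 exon bases of ANKRD23 also in the gene model Gm42417 on the same strand, so that reads of the 2 cannot be told apart there.

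The balance of the 3 ankyrin repeat genes shifted accordingly. ANKRD1 made up 4.90 ± 1.77% (SD, n = 5) of their summed RPKM in unimmunized and 4.16 ± 2.24% in OVA mice on day 14, but 31.95 ± 8.34% in EAE mice, where it ranged from 21.4 to 40.5%. ANKRD23 made up 88.0 ± 5.03%, 89.0 ± 5.33% and 53.0 ± 11.7%. On day 40 the share of ANKRD1 was 4.10 ± 2.18%, 3.95 ± 1.42% and 4.96 ± 1.87% in the 3 groups, with overlapping values.

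**Figure D2:**
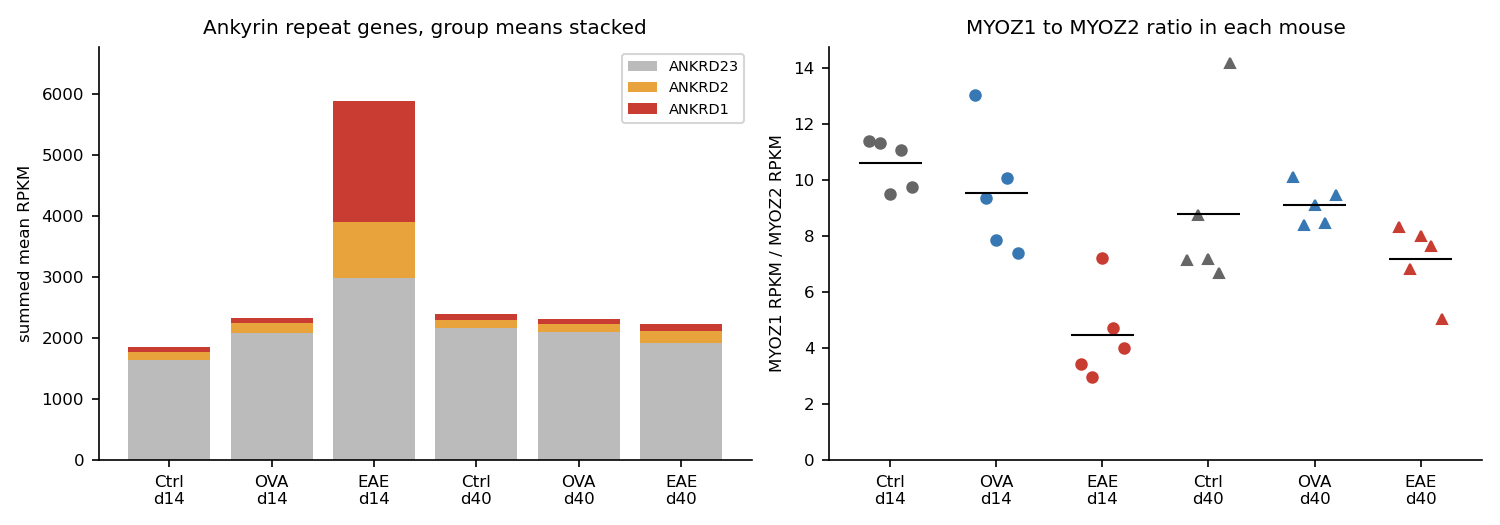
Left, group means of the RPKM of ANKRD23, ANKRD2 and ANKRD1 stacked from 0 (n = 5). Right, the ratio of MYOZ1 to MYOZ2 RPKM in each mouse with the group mean as a line: the EAE mice on day 14 average 4.47 against 10.6 in unimmunized mice, and the EAE ankyrin column on that day is the only one with a broad ANKRD1 segment.

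CSRP3 varied most among the EAE mice of day 14. They had 932, 301, 103, 362 and 246 RPKM, a coefficient of variation of 81.9%. The unimmunized mice had 74.1, 69.8, 168, 78.6 and 47.9 RPKM and the OVA mice 63.3, 55.3, 86.0, 59.8 and 178. Replicate 3 of the EAE mice lay within the range of both controls, while the other 4 lay above it. The log2 fold change was 1.92 (SE 0.47) against unimmunized and 1.93 (SE 0.47) against OVA mice, and without replicate 1 of the EAE mice it was 1.52 in both.

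XIRP1, whose protein is known from damaged and regenerating fibres, was at 82.3, 131, 53.8, 76.6 and 60.1 RPKM in the EAE mice on day 14. It was at 17.2 to 32.4 RPKM in unimmunized and at 12.4 to 37.2 in OVA mice, so the groups did not overlap. The log2 fold change was 1.74 (SE 0.30) and 1.496 (SE 0.30). XIRP2, the more abundant relative, had 163 to 243 RPKM in EAE mice and overlapped with both controls (141 to 204 and 136 to 313). Its difference was 0.30 (95% interval -0.13 to 0.74) against unimmunized and 0.05 (-0.39 to 0.48) against OVA mice. The ratio of XIRP2 to XIRP1 was 2.66 ± 0.56 in EAE mice, 7.22 ± 1.45 in unimmunized and 7.65 ± 3.06 in OVA mice. An antisense gene, Gm13601, shares 168 exon bases with XIRP2, and the strand setting of the counting is not given in the sources used here.

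The calsarcins moved apart. MYOZ1 was at 714, 469, 939, 825 and 672 RPKM in the EAE mice on day 14. The unimmunized mice had 1591, 1346, 1304, 1066 and 1111 RPKM, and the OVA mice 1606, 969, 1029, 1205 and 1234. Every EAE mouse was below every control mouse of that day, although replicate 3 (939) came close to the lowest OVA mouse (969). MYOZ1 fell by 0.85 (SE 0.18) and 0.75 (SE 0.18) on the log2 scale against unimmunized and OVA mice, and by 0.57 and 0.50 after quantile normalization, which is under the fold threshold.

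MYOZ2 had 207, 159, 130.0, 175 and 167 RPKM in the EAE mice on day 14, 96.2 to 139.7 in unimmunized and 104 to 167 in OVA mice. These ranges overlapped, and the log2 fold changes of 0.46 (SE 0.15) and 0.38 (SE 0.15) were under the fold threshold. The ratio of MYOZ1 to MYOZ2 was 4.47 ± 1.67 in EAE mice, with a range of 2.95 to 7.22, against 10.6 ± 0.91 in unimmunized and 9.56 ± 2.24 (lowest 7.41) in OVA mice. Of 10 contractile genes of slow fibres, 1 was called higher and 4 lower in EAE against unimmunized mice on day 14. Of 12 fast-fibre genes 0 were called higher and 4 lower, beside 14.6% and 11.8% of all genes tested.

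The EAE mice on day 14 differed among themselves in the same way for most members. Replicate 3 was the lowest of the 5 for ANKRD1, ANKRD2, CSRP3, XIRP1 and MYOZ2 and the highest for MYOZ1. Its ANKRD1 was 9.89 times the mean of the unimmunized mice, and its CSRP3 was 1.18 times that mean. Replicate 1 was the highest for ANKRD2, CSRP3 and MYOZ2, at 13.6, 10.6 and 1.71 times the unimmunized mean. Replicate 3 also had the deepest library by estimate, with 31300000 reads, near the highest depth that the estimate allowed for. The part of depth in its values was not tested.

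**Figure D3:**
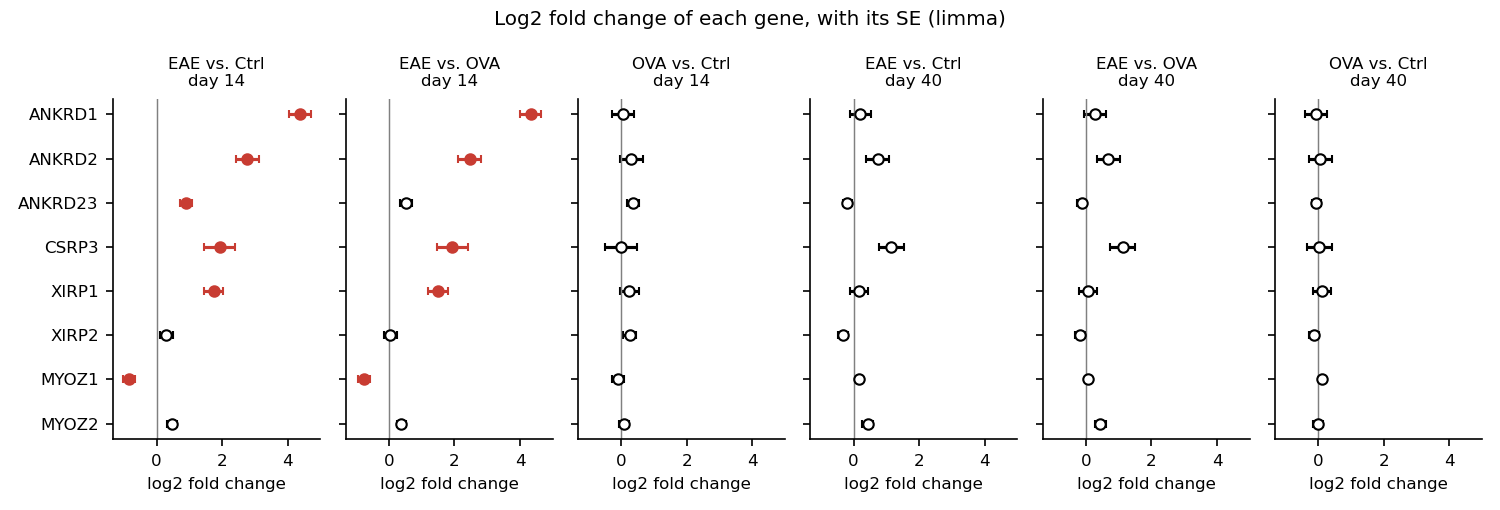
Log2 fold change of each gene (horizontal axis) with its SE from limma in the 6 comparisons. Filled red points are called genes, and all of them stand in the EAE comparisons of day 14, which are a description.

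OVA immunization alone did not move these genes detectably. On day 14, 0 of the 8 were called between OVA and unimmunized mice by limma, beside 0.142% of 8471 genes, and 0 had an unadjusted p below 0.05, beside 9.69% of all genes. The largest difference was that of ANKRD23, 0.36 (95% interval -0.0044 to 0.73, limma adjusted p = 0.528), and without replicate 1 of the unimmunized mice it was 0.19. The intervals of ANKRD1 (-0.66 to 0.76), ANKRD2 (-0.45 to 1.06) and CSRP3 (-1.01 to 1.00) were wide enough to hold changes of 1.5-fold. Replicate 5 of the OVA mice was the highest of its group for ANKRD1 (183 RPKM), ANKRD2 (278), CSRP3 (178) and MYOZ2 (167), and it also had the second highest mean of slow-fibre genes of the 30 mice, 7.42 on the log2 scale. On day 40, 0 of the 8 were called (0.00% of 8706 genes, with 272 of those at an unadjusted p below 0.05 and 0 of the 8). The effect of OVA did not differ detectably between the days for any of the 8 (limma interaction, adjusted p of 0.567 to 0.982).

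On day 40, CSRP3 was the member with the largest difference between EAE and unimmunized mice. The EAE mice had 123, 88.7, 118, 209 and 308 RPKM. The unimmunized mice had 92.8, 60.0, 75.0, 136 and 26.4 RPKM, and the OVA mice 46.4, 104, 62.6, 86.5 and 65.6. The values overlapped between all 3 groups, though the 3 lowest of the unimmunized mice lay below every EAE mouse. The log2 fold change was 1.155 (SE 0.38, 95% interval 0.35 to 1.96) against unimmunized and 1.12 (SE 0.38, 0.31 to 1.92) against OVA mice, by absolute size 3 among 8691 and 7 among 8598 genes. Neither passed the limma test (adjusted p = 0.0858 and 0.1645).

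Leaving out single mice moved that difference, from 0.81 to 1.40 against unimmunized mice (SE 0.38 in the full fit), and could change its call. Without replicate 4 of the unimmunized mice CSRP3 was called (1.40, limma adjusted p = 0.0214), and without replicate 5 of the unimmunized mice it was 0.81. Without replicate 5 of the EAE mice the difference from OVA mice was 0.86. Those 2 replicates 5 also stood at the ends of the slow-fibre genes: the mean log2 level of the 10 genes was highest of all 30 mice in the EAE mouse (7.65) and lowest in the unimmunized mouse (6.36). The part of the slow-fibre content in the difference of CSRP3 was not tested. No slow-fibre gene of the 10 was called between the groups on day 40, and the list median of their log2 fold changes was 0.07 against unimmunized mice, beside -0.05 over all genes, and 0.22 against OVA mice, beside -0.04. In each comparison 1 of the 10 had an unadjusted p below 0.05.

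MYOZ2 and ANKRD2 stood next to CSRP3 on day 40. MYOZ2 had 154, 162, 159, 170.3 and 232 RPKM in the EAE mice and 119, 142, 128, 132 and 120.4 in the OVA mice. These 2 groups did not overlap, as for 5.87% of 8598 genes. The unimmunized mice, at 153, 127, 123, 179 and 82.2 RPKM, overlapped with both. The differences were 0.43 (SE 0.16, limma adjusted p = 0.1098) against unimmunized and 0.44 (SE 0.16, adjusted p = 0.1785) against OVA mice. For ANKRD2 the differences were 0.74 (95% interval -0.0015 to 1.49, limma adjusted p = 0.180) and 0.68 (-0.07 to 1.42, adjusted p = 0.332). These differences too shifted when single mice were left out. Without replicate 5 of the unimmunized mice ANKRD2 and MYOZ2 differed by 0.44 and 0.27 from them, and without replicate 5 of the EAE mice ANKRD2 differed by 0.45 from OVA mice. Without replicate 4 of the unimmunized mice MYOZ2 differed by 0.55 (limma adjusted p = 0.0224), still under the fold threshold.

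The other members differed by less on day 40. XIRP2 was lower in EAE than in unimmunized mice by a log2 fold change of -0.31 (95% interval -0.63 to 0.01, limma adjusted p = 0.188), with replicate 3 of the unimmunized mice far above the others at 360 RPKM (359.6), and it was -0.15 without that mouse. MYOZ1 differed by 0.17 (0.01 to 0.34, adjusted p = 0.163) and was back in the range of the controls or above it, with 1105 to 1305 RPKM in EAE mice against 881 to 1201 in unimmunized mice. ANKRD1, ANKRD23 and XIRP1 had adjusted p of 0.695, 0.365 and 0.696. In all, limma called 0 of the 8 against unimmunized mice (0.460% of 8691 genes) and 0 against OVA mice (0.209%), and 3 and 2 of the 8 had an unadjusted p below 0.05, beside 27.9% and 17.5% of all genes.

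Between the days, the levels of the EAE group moved in the opposite direction to the differences of day 14. From day 14 to day 40 the log2 fold changes in EAE mice were -4.11 for ANKRD1, -2.16 for ANKRD2, -1.501 for XIRP1, -0.99 for CSRP3, -0.65 for ANKRD23 and 0.80 for MYOZ1, given without a test because the day 14 mice chose the genes (1 called higher and 4 lower, beside 21.0% of 9049 genes). For MYOZ2 and XIRP2 they were 0.07 and -0.12. In mice without EAE the days could be tested. In unimmunized mice ANKRD23 and XIRP2 were higher on day 40 by 0.43 (SE 0.16) and 0.49 (SE 0.19) with limma adjusted p of 0.0443 and 0.0481, but under the fold threshold, so that 0 of the 8 were called, beside 9.28% of 9049 genes. After quantile normalization both were called (0.70 each), and the cause was not tested. Each difference includes a mouse far from its group. For ANKRD23 it was replicate 1 of day 14 (982 RPKM, the others at 1716 to 1988). For XIRP2 it was replicate 3 of day 40 (359.6 RPKM, the others at 191.4 to 231.5). The comparison between days was not repeated without these mice. In OVA mice 0 of the 8 were called, beside 3.92%, and 0 had an unadjusted p below 0.05.

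Outside the EAE mice of day 14, levels of ANKRD2, CSRP3 and MYOZ2 were correlated over the pooled mice. In all correlations given here the other groups were pooled, and the permutation did not keep to groups or days. Differences between groups can therefore be part of r and of its p. Over the other 25 mice, ANKRD2 and CSRP3 had Pearson r = 0.914 (Spearman rho 0.835, permutation p = 1e-05, the smallest that 100000 resamples can give, and 2e-05). For CSRP3 and MYOZ2, r was 0.873 and rho 0.872 (permutation p = 1e-05 each), and for ANKRD2 and MYOZ2 r was 0.818 and rho 0.802 (permutation p = 1e-05 and 2e-05). The largest adjusted p of these over the 36 relations computed was 0.000144. Without the 2 mice farthest from the median of the first gene, r was 0.848, 0.764 and 0.665. Within day 14 (10 mice) r was 0.829, 0.705 and 0.721, and within day 40 (15 mice) it was 0.956, 0.948 and 0.918.

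ANKRD1 followed this trio less closely, with r = 0.740 with ANKRD2, 0.639 with CSRP3 and 0.608 with MYOZ2 (rho 0.765, 0.580 and 0.601, and adjusted permutation p of 0.000144 to 0.0137). XIRP2 and MYOZ1 ran in opposite directions, with r = -0.796 and rho -0.736 (permutation p = 1e-05 and 5e-05, adjusted 9e-05 and 0.0003), -0.672 without the 2 farthest mice, -0.790 within day 14 and -0.793 within day 40. After median-of-ratios scaling it was -0.653. ANKRD23 and XIRP2 had r = 0.662 and rho 0.769 (adjusted permutation p = 0.002295 and 0.000144).

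The mean of the slow-fibre genes was correlated with the same trio by Pearson r, but not by rho after adjustment. Its r was 0.712 with ANKRD2, 0.606 with CSRP3 and 0.583 with MYOZ2 (rho 0.455, 0.342 and 0.243, with adjusted permutation p for rho of 0.0755, 0.213 and 0.377). Without the 2 mice farthest from the median of the slow-fibre mean, r was 0.435, 0.232 and 0.150, and these mice are replicate 5 of the EAE mice and replicate 5 of the unimmunized mice of day 40. Within day 14, which holds neither of them, r was 0.636, 0.418 and 0.454 over 10 mice, and within day 40 it was 0.765, 0.729 and 0.787 over 15 mice. The size of these relations thus depended on those mice. For ANKRD1 the r with the slow-fibre mean was 0.488 and rho 0.393 (adjusted permutation p = 0.0314 and 0.135), with r = 0.430 without the 2 farthest mice, 0.735 within day 14 and 0.467 within day 40.

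**Figure D4:**
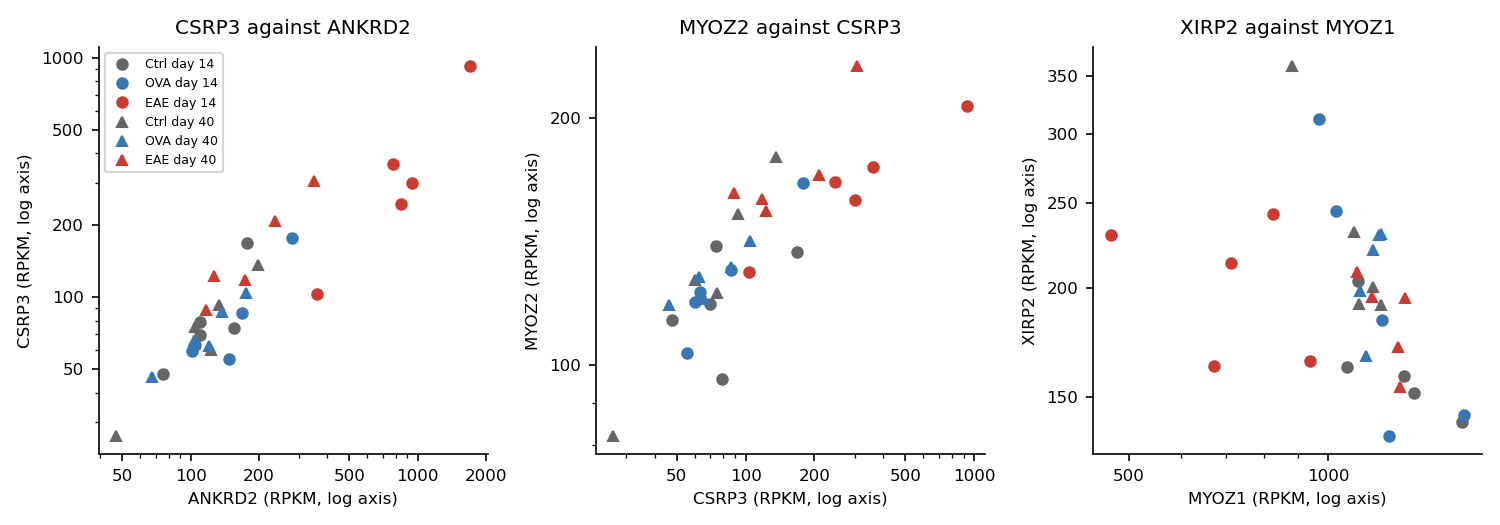
RPKM of CSRP3 against ANKRD2, MYOZ2 against CSRP3, and XIRP2 against MYOZ1 (log axes), with a point for each mouse. The first 2 panels run upwards (r = 0.914 and 0.873 over the 25 mice other than EAE on day 14), the third runs downwards (r = -0.796), and there the EAE mice of day 14 stand to the left.

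Related genes were described by lists that were chosen with earlier results of these data known, so that their counts and adjusted p are a description, read beside the shares over all genes. On day 14, between EAE and unimmunized mice, 14.6% of all genes were called higher and 11.8% lower, and against OVA mice 11.0% and 9.28%. Of 25 tested genes of Z-disc and actin-crosslinking proteins, 9 were called higher and 3 lower against unimmunized mice (median log2 fold change 0.42, beside 0.11 over all genes). Higher were PDLIM3 (1.75, SE 0.17), a LIM protein that binds alpha-actinin, FHL1 (1.63, SE 0.26), FLNC (1.36, SE 0.24), the filamin that XIRP1 binds, and CRYAB (1.23, SE 0.22), a small heat shock protein (limma adjusted p of 2.985e-06 to 0.00037). Lower were MYOZ3 (-1.06, SE 0.20), the third calsarcin, FHL3 (-0.98, SE 0.20) and PDLIM7 (-0.59, SE 0.12). Thus MYOZ3 changed in the direction of MYOZ1. Against OVA mice 7 were called higher and 1, MYOZ3, lower.

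Of 19 genes of titin, nebulin, the M-band and thin filament length, 7 were called higher and 0 lower (median 0.31). MYOM3, an M-band protein, had 2.36 (SE 0.25), LMOD2, which lengthens thin filaments, 1.87 (SE 0.20), CAP2 1.58 (SE 0.16) and CFL2, a muscle cofilin, 1.23 (SE 0.14). Titin itself, the partner of the ankyrin repeat proteins, was not called: TTN had 0.31 (SE 0.21, limma adjusted p = 0.227), and CAPN3, a protease held on titin, had -0.53 (SE 0.18, adjusted p = 0.0262), under the fold threshold. Of 18 costamere and focal adhesion genes 5 were called higher and 0 lower (median 0.36), among them VCL (0.73, SE 0.21), which encodes vinculin, FERMT2 (0.67, SE 0.14) and itga7 (0.65, SE 0.10). Against OVA mice 7 and 3 genes of these lists were called higher and 0 lower.

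Signalling routes known to act on load-responsive genes were described in the same way. Of 14 genes of the YAP/TAZ and TEAD axis, 6 were called higher and 0 lower (median 0.24): TEAD4 (2.07, SE 0.28), a TEAD factor of muscle, CYR61 (1.79, SE 0.21), AMOTL2 (0.999, SE 0.23) and LATS2 (0.83, SE 0.30) were the largest, whereas CTGF, another classical target that was named after its value was seen, had -0.03 (SE 0.29, limma adjusted p = 0.950). Of 12 genes of the calcineurin and NFAT axis, 2 were called higher and 1 lower, MEF2A (2.00, SE 0.58), MEF2C (1.03, SE 0.10) and NFATC4 (-0.63, SE 0.14). MEF2A varied widely, at 18.0 to 46.9 RPKM in EAE, 1.26 to 16.0 in unimmunized and 5.01 to 28.0 in OVA mice. Of 15 genes of the SRF and MRTF axis, 2 were called higher and 4 lower (median -0.27). ABRA, which activates SRF, had 1.20 (SE 0.20) and MKL2, an SRF cofactor, 0.61 (SE 0.23), while ACTC1, an actin gene and SRF target, had -2.61 (SE 0.26) and TAGLN2 -1.004 (SE 0.20), followed by CNN2 at -0.80 (SE 0.17). Against OVA mice the counts were 4 and 0, 2 and 0, and 1 and 5.

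Of the 9 lists of related genes, the denervation genes had the largest median difference. Of 12 tested, 11 were called higher and 0 lower against unimmunized mice on day 14, with a median log2 fold change of 2.73, and the same counts held against OVA mice. MYOG (4.10, SE 0.36), the transcription factor myogenin, MUSK (3.43, SE 0.43) and CHRNG (3.01, SE 0.36), the fetal acetylcholine receptor subunit, were among the called genes. On day 40, limma called 0 genes of these 9 lists in any comparison. At an unadjusted p below 0.05 there were 38 of 132 between EAE and unimmunized mice, 23 of 130 between EAE and OVA mice and 6 of 132 between OVA and unimmunized mice, near the shares over all genes. Between OVA and unimmunized mice on day 14, 0 of 129 were called and 11 had an unadjusted p below 0.05.

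**Figure D5:**
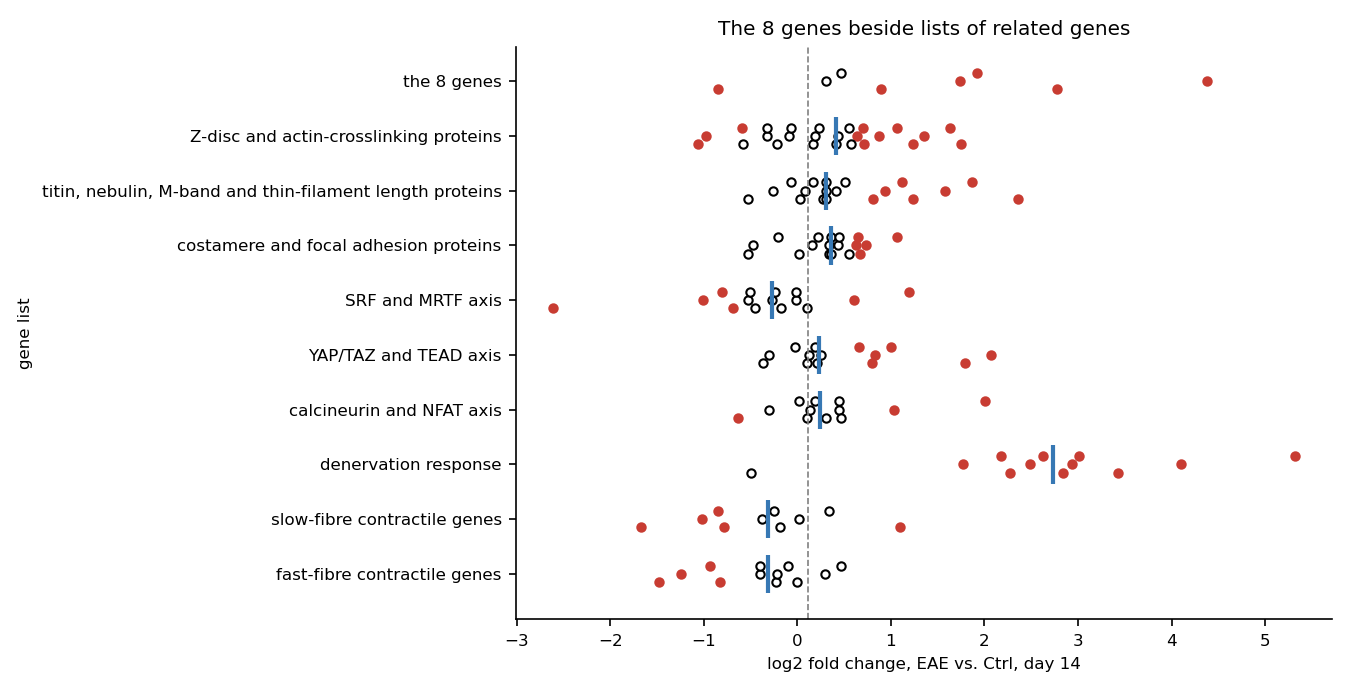
Log2 fold change between EAE and unimmunized mice on day 14 for each gene of the 9 related lists and for the 8 genes. Red points passed the test and fold threshold, open points did not, blue bars are list medians and the dashed line is the median of all genes (0.11), with the denervation list farthest to the right (2.73).

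Contractile fibre-type genes were mostly lower or not called on the same day. In the slow list MYL3 (-1.67, SE 0.23), TNNC1 (-1.02, SE 0.25), TPM3 (-0.85, SE 0.15) and MYL2 (-0.79, SE 0.19) were called lower and MYL6B higher (1.09, SE 0.24), while MYH7, the slow myosin, had -0.19 (SE 0.20, limma adjusted p = 0.465). In the fast list PVALB (-1.47, SE 0.27), CASQ1 (-1.24, SE 0.19), TNNC2 (-0.93, SE 0.24) and TPM1 (-0.82, SE 0.18) were called lower, while the fast myosin MYH4 had 0.00 (SE 0.19).

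Several markers of other cells also differed on day 14. Of all genes tested, 14.6% were called higher and 11.8% lower between EAE and unimmunized mice. Between EAE and unimmunized mice, 7 of 8 fibroblast markers, 4 of 8 macrophage markers and 4 of 8 endothelial markers were called lower, and of 7 tendon markers 6 were called lower and SCX higher. The summed RPKM of the fibroblast markers was 720.4 to 1016 in EAE and 1581 to 2103 in unimmunized mice, and that of the tendon markers 305 to 486 and 609 to 847. Summed macrophage markers were 132 to 294 and 273 to 413, and endothelial markers 106 to 139.6 and 129 to 172. Of the neutrophil markers, 4 of 4 tested were higher in EAE (199.6 to 391 summed) and in OVA mice (61.7 to 225) than in unimmunized mice (3.39 to 9.38). Between EAE and OVA mice S100A8 was higher (224.7 against 46.5 RPKM), while S100A9 (36.1 against 71.9), Ngp (3.80 against 6.51) and Retnlg (4.58 against 10.02) had lower means and were not called. Of 6 Schwann cell markers, limma called 0 and 0 had an unadjusted p below 0.05, and of 7 muscle fibre markers 1, PVALB, was called lower. By sign only 1 of these 7 was higher, and 4 had an unadjusted p below 0.05 (median log2 fold change -0.24). Of 4 markers of developing or regenerating muscle tested, MYOD1 and MYOG were called higher, of 5 of smooth muscle SMTN and LMOD1 lower, and of 3 of heart muscle TNNT2 and MYL4 higher. The heart markers NPPA, nppb, MYL7, RYR2 and TNNI3, at most 1.66 RPKM in any mouse, were too low to be tested. The part of other cells in the values of the 8 genes was not tested.

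For each member, the genes with the most similar pattern were taken as the 3 with the highest Pearson r of log2 RPKM over the 30 mice, among 9041 genes. These values are a measure of likeness without a test, and the 30 points include the EAE mice of day 14, which stood apart. MYOG (0.969), STK40 (0.968) and UBXN4 (0.967) were most like ANKRD1, and HSPA1L (0.970), HSPB7 (0.969) and TNFRSF12A (0.934) most like ANKRD2. CSRP3 and MYOZ2 shared their nearest genes, ADPRHL1 (0.919 and 0.793) and OTULIN (0.906 and 0.769), followed by HSPB7 (0.892) for CSRP3 and CNKSR1 (0.727) for MYOZ2. XIRP1 was nearest to FLNC (0.946), the filamin named above, then to TIAM2 (0.938) and 6430548M08Rik (0.930). ANKRD23 was nearest to BRAP (0.928), GLYR1 (0.927) and NUDCD1 (0.925), and XIRP2 to ARHGAP5 (0.893), CCDC186 (0.892) and 5730455P16Rik (0.884). MYOZ1 was nearest to SLC37A4 (0.959), TCEA3 (0.946) and DHRS7C (0.939).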

How the data were processed

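Poly(A) RNA of EDL muscle was sequenced in paired ends. Per the paper's methods and the submitters' processing notes, Subread was used for alignment (mm10) and featureCounts for counting over RefSeq genes, from which the authors derived RPKM values. The table the authors deposited, 1 for all mice, holds log2 values, log2(RPKM + 1), with 0.0001 for genes without a read (25.8% of values, largest value 14.66). The log2 scale was found from the values: on the converted scale, RPKM times exon length summed to 96.4 to 102.8% of the total it should give, and 75.8 to 80.3% of low values were whole reads within 0.1 (69.9 to 78.0% if the values were RPKM). Reads per mouse were estimated from these steps, and intervals from them cover counting error only. Read counts were not used here, so edgeR, which the authors used, was replaced by limma.

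Values were converted back to RPKM and tested as log2(RPKM + 0.1) with limma 3.58.1 (R 4.3.3, lmFit and eBayes with trend), the 15 mice of a day in 1 model and all 30 for comparisons between days. Fold changes are on that scale. Genes with a mean above 3 RPKM in a compared group were tested. A gene was called where its fold change exceeded 1.5 and its p, adjusted by Benjamini-Hochberg, was below 0.05. On simulated data the fit recovered most of the genes given a large change, and recovery of smaller changes is not reported here. Correlations used two-sided permutation tests without regard to group (Python 3 with NumPy) and were added after the data were seen. Samples were grouped by their labels. Of 60 pairs of mice of 1 group, 0 were identical. Genes named in the text are the 8 members, called genes with the largest changes of each list (some items are not reported here), MYOZ3, TTN, CAPN3, MYH7 and MYH4, and, for each member, the 3 most similar genes. The members and lists were chosen with earlier results of these data known. Coordinates and promoters are from RefSeq and GENCODE on GRCm38, the assembly of mm10.

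Alternatives were another pseudocount, filter, scaling, fold threshold and set of mice in the fit, a replicate block, and leaving out each mouse.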

Additional observations from a re-analysis of the deposited data

Results flagged for a closer look

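In groups of 5 mice, a highest or lowest value was looked at again when its gap to the next was over 0.71 of the whole range of the group. Of 48 groups (8 genes in 6 groups), 7 had such a mouse. The rule flags about 1 in 20 groups of independent, normally distributed values. These RPKM values were not log-transformed and the 48 groups share mice, so the 7 cannot be judged against that share. Replicate 5 of the OVA mice on day 14 was highest for ANKRD1 (183 RPKM, the other 4 at 67.0 to 84.3) and for CSRP3 (178, the others at 55.3 to 86.0). Replicate 3 of the unimmunized mice on day 14 was highest for CSRP3 (168, the others at 47.9 to 78.6). For ANKRD23, replicate 1 of the unimmunized mice on day 14 (982 RPKM, the others at 1716 to 1988) and replicate 5 of the OVA mice on day 40 (1456, the others at 2168 to 2368) were lowest. On day 40, replicate 5 of the EAE mice was highest for MYOZ2 (232, the others at 154 to 170.3) and replicate 3 of the unimmunized mice for XIRP2 (359.6, the others at 191 to 232).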

How the results depend on the processing

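Of the alternative counts of members called, 247 stayed the same as or within 1.5 times the reported count, 4 fell below that and 1 exceeded it. A count of 0 that stayed at 0 is among the 247. The reported counts above 0 all belong to the EAE comparisons of day 14, which are a description. The number of members called lower in EAE mice on day 14 (MYOZ1) was 0 after quantile normalization and 0 with a fold change above 2, against both control groups, since MYOZ1 then missed the fold threshold. The number called higher between EAE and unimmunized mice on day 40 ranged from 0 to 1 when single mice were left out, with CSRP3 called without replicate 4 of the unimmunized mice (1.40), and the cause was not tested. In the comparison of EAE with OVA mice on day 14, ANKRD23 was called after quantile normalization (0.94) and without replicate 2 of the OVA mice (0.61). Without a fold threshold MYOZ2 was called against both controls on day 14 (0.46 and 0.38), and with a fold change above 2 ANKRD23 was not called (0.89). Of the related genes, the costamere genes called higher against unimmunized mice on day 14 fell from 5 to 2 after quantile normalization and without replicate 1 of the unimmunized mice, and the SRF and MRTF genes called higher from 2 to 1 in most alternatives. After median-of-ratios scaling, chosen after seeing the data, 5 recomputed correlations moved, each with MYOZ1, and 67 of both alternatives stayed the same. Replicate numbers did not pair the mice: mice of 1 number correlated with a median r of 0.05 on day 14 and -0.13 on day 40 in their deviations from the group means. With the replicate block, each of the 8 members kept its call or stayed uncalled in every comparison within a day. For EAE mice on day 14 this too is a description. The counting error of the 8 genes was at most 4.11%.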
